A study of Mus musculus with 2 samples.

Results

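The genes described here encode the tumour necrosis factor (TNF) ligands, their receptors and the TNF receptor-associated factors (TRAFs), measured in neutrophils of mouse bone marrow. They were taken by symbol: every probe set assigned to 1 gene whose platform symbol begins with Tnfrsf or Tnfsf and a number, or is Traf and a single digit, or is Tnf, Fas, Fasl, Ltb, Lta or Ltbr. This gave 66 probe sets of 39 genes, out of 34958 probe sets of 18194 genes with a single-gene probe set. The rule uses no measured value, but it was chosen with earlier results of these data known. The 39 were 11 ligand genes, 5 receptors with a death domain, 13 receptors without one, 3 decoy or little-studied receptors, 6 TRAFs and Tnfsf13os, a non-coding transcript of the Tnfsf13 locus that the symbol rule also takes. Tnfsf12, Tnfsf13, Tnfsf15, Tnfsf18, Tnfrsf26 and Traf3 had no probe set of their own among these and were not analysed here.

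The cells came from mice of the inbred strain C57BL/6, for which the labels name no treatment and no genetic change. Marrow was stained for Gr-1 and CD48, and living cells with high Gr-1 and no CD48 were sorted in 2 separate experiments, each giving 1 array (replicate 1 and replicate 2). The labels do not give the animals' age or sex, or whether animals were pooled. There is 1 group and no control, so the data answer which of these genes gave a signal above background in sorted neutrophils and how far the experiments differed.

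TNF ligands are mostly trimeric proteins of the cell surface that can be cut free by proteases. Their receptors fall into those with a death domain in the cytoplasmic tail, which recruit adaptors such as TRADD and FADD and can lead to NF-kB activation or to cell death, and those without one, which bind TRAFs directly. Decoy receptors bind ligand without passing on a signal. In neutrophils, TNF is known to prime the oxidative burst and adhesion, and TNF and Fas ligand can shorten or, for TNF, also prolong the cells' life.

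A signal is the MAS5 intensity of a probe set on a linear scale. Background was read from 87 probe sets of 78 receptor genes of taste and smell, known mainly from sensory cells. Their 95th percentile, 108 for replicate 1 and 131 for replicate 2, was the threshold, and 2 of the 87 passed it on both arrays. A gene was called above background when a probe set of its own passed on both arrays, and it was read on the brightest such probe set. All 10 neutrophil marker genes were above background (S100a8, S100a9, Ltf, Camp, Ngp, Lcn2, Mmp9, Csf3r, Cxcr2 and Itgam). They did not move together between the arrays: S100a8 and Ltf were each 1.77-fold higher on replicate 2, while Cxcr2 was 2.24-fold and Csf3r 1.70-fold higher on replicate 1. Among markers of other cells, 4 of 7 monocyte, 3 of 7 macrophage, 2 of 7 stromal and endothelial, 1 of 6 dendritic cell and 1 of 6 T cell genes were above background, and 0 of 7 B cell, 0 of 4 plasma cell and 0 of 4 NK cell genes. Over all genes the share was 40.4%. The summed signal of the 8 genes of dividing cells was 1207 on replicate 1 and 9371 on replicate 2. That of the 7 monocyte genes was 5831 and 2755, and without Csf1r (5020 and 1928) that of the other 6 was 811 and 827. The part of these cells in the values below was not tested, and in sorted bulk cells fewer cells of a type and less RNA per cell cannot be told apart. Probe sets differ in how well they bind, so no gene's signal was ranked against another's.

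The promoters of 2 ligand genes and of 1 receptor gene for each are shown, all 4 of them above background on both arrays. The other TNF receptor gene, Tnfrsf1b, was above background too and is left out for brevity. The ligand genes are neighbours: Ltb, Tnf and Lta follow each other on mouse chromosome 17 in the RefSeq gene order, and the Lta probe set was not above background. Each run holds the 250 bases before the RefSeq transcription start, 5′ to 3′ on the gene's strand (GRCm38.p6). Capitals mark matches on either strand to an ETS-factor core (GAGGAA), the NF-kB consensus, a CRE or AP-1 like site written as TGANNTCA, and a TATA box (TATAAA); no match overlaps another.
Ltb (chr17:35194257-35194506, plus strand): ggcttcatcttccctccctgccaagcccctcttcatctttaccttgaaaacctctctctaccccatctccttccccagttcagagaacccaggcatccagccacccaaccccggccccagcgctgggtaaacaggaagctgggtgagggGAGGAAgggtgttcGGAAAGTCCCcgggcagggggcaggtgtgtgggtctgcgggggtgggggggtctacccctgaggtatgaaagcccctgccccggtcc
Tnf (chr17:35202008-35202257, minus strand): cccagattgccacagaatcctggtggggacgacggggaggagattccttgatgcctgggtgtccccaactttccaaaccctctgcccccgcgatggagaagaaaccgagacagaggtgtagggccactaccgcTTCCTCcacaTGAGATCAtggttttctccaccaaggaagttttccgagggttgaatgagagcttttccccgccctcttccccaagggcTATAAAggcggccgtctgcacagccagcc
Tnfrsf1a (chr6:125349473-125349722, plus strand): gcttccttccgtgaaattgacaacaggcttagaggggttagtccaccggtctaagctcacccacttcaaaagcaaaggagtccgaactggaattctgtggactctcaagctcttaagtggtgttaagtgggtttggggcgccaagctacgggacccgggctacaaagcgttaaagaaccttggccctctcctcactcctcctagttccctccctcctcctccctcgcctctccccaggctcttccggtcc
Ltbr (chr6:125313886-125314135, minus strand): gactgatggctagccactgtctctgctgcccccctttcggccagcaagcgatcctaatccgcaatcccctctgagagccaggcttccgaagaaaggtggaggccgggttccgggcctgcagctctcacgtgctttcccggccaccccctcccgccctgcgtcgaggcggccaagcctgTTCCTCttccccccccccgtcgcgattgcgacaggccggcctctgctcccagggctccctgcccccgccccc

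The Ltb window held 1 ETS core and 1 NF-kB match (GGAAAGTCCC, bases 87 to 78 before the start). The Tnf window held 1 ETS core, 1 CRE or AP-1 like match (TGAGATCA) and 1 TATA box 29 to 24 bases before the start. The Ltbr window held 1 ETS core, and none of the 4 strings as written matched in the Tnfrsf1a window. Shorter GGAA letters do occur there. Over all 32851 promoter windows of this length, 23.3% held the ETS core, 1.41% the NF-kB letters, 11.9% the CRE or AP-1 letters and 12.4% the TATA box. Counted by gene, over any window of the gene, the shares of all 27025 genes were 25.9%, 1.65%, 13.5% and 14.3%. Of the 33 family genes with a window, 14 held the ETS core, 3 the NF-kB match, 3 the CRE or AP-1 letters and 5 the TATA box. Among the 15 of them above background on both arrays these counts were 10, 1 (Ltb), 2 (Tnf and Tnfrsf21) and 1 (Tnf). The motifs were chosen after values were seen, and nothing is read from these counts. A match describes the letters and is not a shown binding site.

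In all, 16 of the 39 genes (41.0%) were above background on both arrays, against 40.4% of all genes, so the family as a whole was not set apart by this share. They were 5 ligand genes (Ltb, Tnf, Tnfsf4, Tnfsf13b and Tnfsf14), 3 death-domain receptors (Tnfrsf1a, Tnfrsf21 and Fas), 5 other receptors (Tnfrsf1b, Ltbr, Tnfrsf4, Tnfrsf13b and Tnfrsf18) and 3 TRAFs (Traf2, Traf6 and Traf7). A further 3 genes passed on replicate 1 alone (Tnfrsf11a, Tnfrsf22 and Traf5), where the share of all genes was 5.57%, and Tnfrsf9 on replicate 2 alone (all genes 3.47%). The other 19 passed on neither array, where replicate 1 spanned 12.0 to 71.5 and replicate 2 spanned 3.11 to 112. Of the 16 calls, 11 were also made at the 99th percentile of the background probe sets (136 and 216). The 5 that were not, Tnfrsf13b, Tnfrsf18, Tnfsf4, Traf2 and Traf6, lay close to background.

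**Figure D1:**
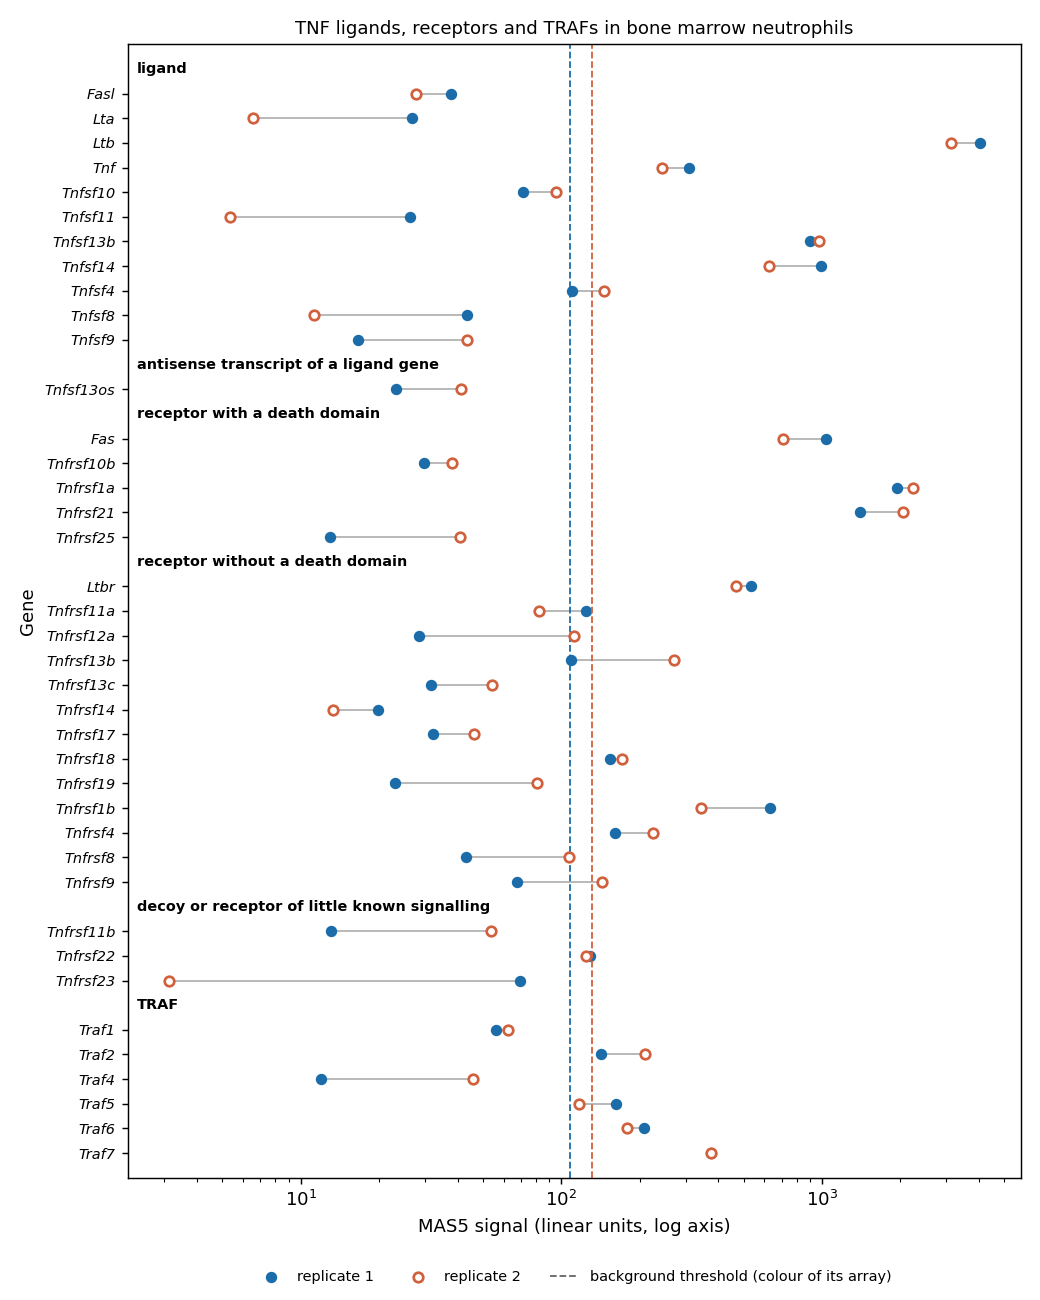
Signal of each of the 39 genes (rows, by role) on replicate 1 (filled points) and replicate 2 (open points), on a log axis, with each array's background threshold as a dashed line (108 and 131); points are to be compared within a row. The 16 genes with both points to the right of their own line include Ltb, Tnfrsf1a, Tnfrsf21 and Fas, far from it, and Tnfsf4 and Tnfrsf13b, whose replicate 1 points lie on it.

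Among the ligands, Ltb gave signals of 4035 on replicate 1 and 3132 on replicate 2 (log2 11.80 ± 0.26, SD, n = 2). Its product, lymphotoxin beta, holds lymphotoxin alpha at the cell surface in a trimer that binds the receptor encoded by Ltbr. Lta, the gene of that partner, gave 26.8 and 6.57 and was above background on neither array. Tnf, the prototype of the family, gave 309 and 244 (log2 8.10 ± 0.24, SD, n = 2). Both Tnf values exceeded the threshold of their array.

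Tnfsf13b encodes BAFF, a survival factor of B cells. Its signals were 901 and 972 (log2 9.87 ± 0.08, SD, n = 2). Tnfsf14 encodes LIGHT, a ligand of LTBR and of the herpesvirus entry mediator, and gave 995 and 628 (log2 9.63 ± 0.47, SD, n = 2). Tnfsf4 encodes OX40 ligand. It gave 110 and 146 and passed the thresholds by 1.71% on replicate 1 and 11.0% on replicate 2, so its call is marginal.

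The other 6 ligand genes were on neither array above background, spanning 16.5 to 71.5 in replicate 1 and 5.34 to 95.6 in replicate 2. They include Fasl (Fas ligand, 37.6 and 27.6), Tnfsf10 (TRAIL, 71.5 and 95.6) and Tnfsf11 (RANK ligand, 26.3 and 5.34). Tnfsf8 and Tnfsf9, which encode the ligands of CD30 and 4-1BB, completed this set. Tnfsf13os gave 23.2 and 41.3. At these signals RNA was not detectable over the sensory receptor probe sets, which does not show that it was absent.

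Of the receptors with a death domain, Tnfrsf1a encodes TNF receptor 1, through which soluble TNF signals in most cells. Its signals were 1941 and 2233 (log2 11.02 ± 0.14, SD, n = 2), both far over the thresholds. Tnfrsf21, which encodes death receptor 6, gave 1396 and 2037 on the brighter of its probe sets (log2 10.72 ± 0.39, SD, n = 2). Fas, the receptor of Fas ligand and a trigger of apoptosis, gave 1036 and 708 (log2 9.74 ± 0.39, SD, n = 2). The remaining death-domain receptors were not above background: Tnfrsf10b, which encodes the mouse TRAIL receptor, gave 29.8 and 38.2, and Tnfrsf25, which encodes death receptor 3, gave 12.9 and 40.7.

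Of the receptors without a death domain, Tnfrsf1b encodes TNF receptor 2, which responds best to membrane-bound TNF. Its signals were 629 and 343 (log2 8.86 ± 0.62, SD, n = 2). Replicate 1 was 1.83-fold higher, while for Tnfrsf1a replicate 2 was 1.15-fold higher except after scaling to the hybridisation controls, where it was lower, and the difference between these 2 changes was not tested. Of the 10 neutrophil markers, 2 (Cxcr2 and Csf3r) were also higher on replicate 1, and 8 were higher on replicate 2. Of the 4 monocyte markers above background, 3 were higher on replicate 1, Csf1r among them, whereas Ccr2 was 157 and 220. All 3 macrophage markers above background were higher on replicate 1, from Adgre1 (627 and 217) to Vcam1 (260 and 255). Of all genes above background, 56.4% were higher on replicate 2. The summed signal of the 7 macrophage markers was 1407 and 782, and that of the 6 monocyte markers other than Csf1r was 811 and 827. That of the 8 genes of dividing cells was 1207 and 9371, higher on replicate 2. The part of any of these cells in the Tnfrsf1b value was not tested. Ltbr, the lymphotoxin beta receptor gene, gave 536 and 469 (log2 8.97 ± 0.13, SD, n = 2).

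Tnfrsf18 (GITR) gave 153 and 171 and Tnfrsf4 (OX40) 161 and 226. These are neighbouring genes in the RefSeq order, and both were above background on both arrays, Tnfrsf4 also at the 99th percentile. Tnfrsf13b encodes TACI, a receptor of BAFF on B cells. It gave 109 and 271 and exceeded the threshold of replicate 1 by only 0.869%. Of the 7 B cell markers measured, 0 were above background on both arrays. On replicate 2 alone 3 passed (Ms4a1, Pax5 and Cd22, all genes 3.47%), and on replicate 1 alone Vpreb3 (all genes 5.57%). The summed signal of the 7 was 505 on replicate 1 and 760 on replicate 2. Their single signals spanned 12.8 to 173 and 19.8 to 174, beside thresholds of 108 and 131. The part of B cells in the Tnfrsf13b value was not tested. The other BAFF receptor genes were below background, with Tnfrsf13c at 31.5 and 54.4 and Tnfrsf17 at 32.1 and 46.1.

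Tnfrsf9 (4-1BB) gave 67.4 and 144, above background on replicate 2 alone and at least 1.33-fold higher there, taking the replicate 1 threshold as its bound, which is under 1 after scaling to the hybridisation controls. Tnfrsf11a (RANK, the receptor that drives osteoclast formation) gave 124 and 82.0, above background on replicate 1 alone. The other 6 receptors without a death domain passed on neither array, spanning 19.7 to 43.0 in replicate 1 and 13.3 to 112 in replicate 2. Besides Tnfrsf13c and Tnfrsf17 these were Tnfrsf8, Tnfrsf12a, Tnfrsf14 and Tnfrsf19. Tnfrsf14, which encodes the herpesvirus entry mediator, gave 19.7 and 13.3, and Tnfrsf12a, which encodes the TWEAK receptor, gave 28.5 and 112.

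None of the 3 decoy or little-studied receptors was above background on both arrays. Tnfrsf22, a mouse decoy receptor for TRAIL, gave 129 and 124 and passed on replicate 1 alone. Its neighbour Tnfrsf23 gave 69.2 and 3.11. Tnfrsf11b, the gene of osteoprotegerin, the soluble decoy of RANK ligand, gave 13.03 and 53.8.

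Known ligand and receptor partners were then set side by side, from a list of 17 pairs written after the values were seen. Ligand and receptor were both above background in 6 pairs: Tnf with Tnfrsf1a and with Tnfrsf1b, Ltb and Tnfsf14 with Ltbr, Tnfsf4 with Tnfrsf4, and Tnfsf13b with Tnfrsf13b. The last of these rests on the marginal values of Tnfrsf13b, and the Tnfsf4 pair on those of Tnfsf4. The Ltb product binds the receptor in a trimer with that of Lta, which was above background on neither array. Some genes recur in several pairs, so the pairs are not independent. In 3 pairs the receptor alone was above background, among them Fas without Fasl, and in 3 the ligand alone, among them Tnfsf14 without Tnfrsf14. In the other 5 pairs neither was above background on both arrays. Of all single genes 40.4% were above background on both arrays. No such share was computed for pairs, so nothing is read from these counts.

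TRAFs carry the signal from receptor tails to kinases and ubiquitin ligases. Traf2, the adaptor of TNF receptors 1 and 2, gave 142 and 208 (log2 7.43 ± 0.39, SD, n = 2). Traf6, the ubiquitin ligase of interleukin 1, Toll-like and CD40 receptors, gave 207 and 178 (log2 7.59 ± 0.15, SD, n = 2). Traf7, which carries WD40 repeats in place of the family's usual receptor-binding domain, gave 374 and 375 (log2 8.55 ± 0.00, SD, n = 2). Traf5 gave 162 and 117, above background on replicate 1 alone, and at least 1.24-fold higher there against the replicate 2 threshold. Traf1, itself a target gene of NF-kB, gave 56.2 and 62.6, and Traf4 gave 12.0 and 45.8.

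Of the 39 genes, 19 were read by more than 1 probe set, and these give a second look at the same RNA. Both probe sets of Tnfsf14 were above background and lower on replicate 2, by log2 differences (replicate 2 minus replicate 1) of -0.66 and -0.70. Both of Tnfrsf21 were above background and higher on replicate 2, by 0.55 and 0.33, and the sign turned under scaling to the hybridisation controls. Of the 3 probe sets of Tnfsf13b, 2 were above background on both arrays. They gave 901 and 972 (log2 difference 0.11) and 218 and 231 (0.08). The third gave 118 and 78.8 (-0.58). Tnfrsf1b was above background on 1 of 2 probe sets, and the dim one gave 32.9 and 17.0. By the mean over its probe sets Tnfrsf1b was not above background on both arrays. Traf6 was above background on 2 of 5 probe sets, which pointed in opposite directions (0.46 and -0.22), though not after scaling to the hybridisation controls, which lowers both by 0.71. Tnfrsf22 gave 129 and 124, 114 and 10.8, and 2.49 and 10.2 on its 3 probe sets, which therefore did not agree on its level.

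**Figure D2:**
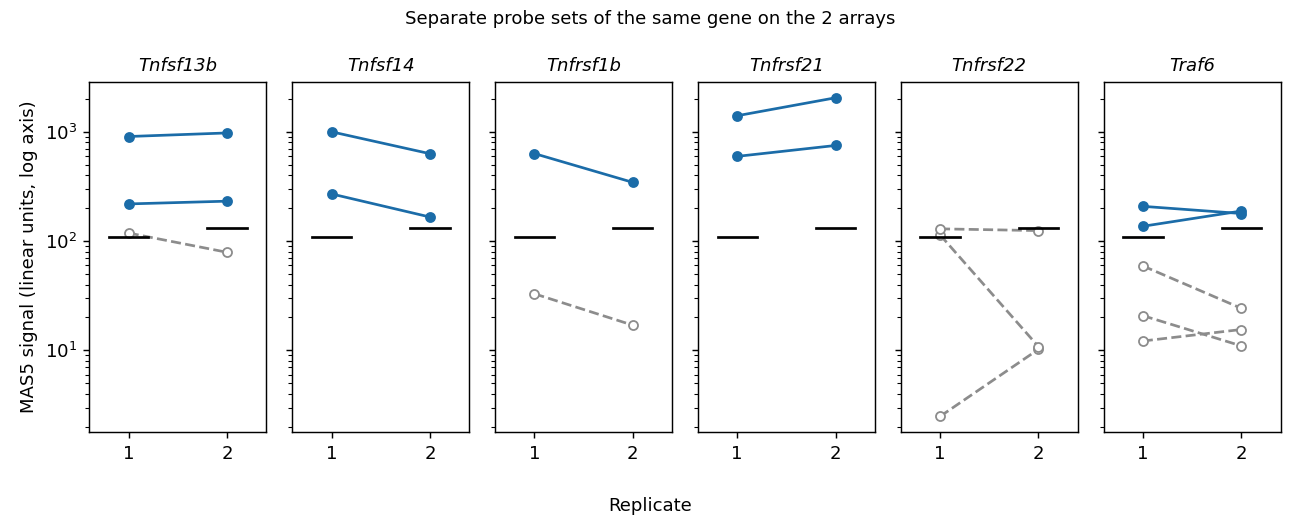
Signals (log axis) of every probe set of 6 genes on replicates 1 and 2; each line is 1 probe set, solid with filled points where it was above background on both arrays and dashed otherwise, and black bars are the thresholds (108 and 131). The paired lines of Tnfsf14 fall together and those of Tnfrsf21 rise together as deposited, though not after scaling to the hybridisation controls, while the solid lines of Traf6 cross.

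The median log2 difference between the experiments (replicate 2 minus replicate 1) over the 16 genes above background was 0.06, and that of all 7354 genes above background was 0.07, with an SD of 0.50 and a central 95% of -0.93 to 1.08. Replicate 2 was higher for 9 of the 16 genes (all genes 56.4%) and lower for 7. With 1 array per experiment there is no replicate check and no p-value. The direction depends on the scaling: 7 of 16 were higher on replicate 2 after median scaling, 8 after quantile normalization and 1 after scaling to the bacterial hybridisation controls, which put the median over all genes at -0.64.

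Tnfrsf13b, at 2.50-fold higher on replicate 2 (log2 difference 1.32), was the only one of the 16 over 2-fold apart, a share near that of all genes (5.33% over 2-fold apart in either direction, 3.39% higher on replicate 2). It is also the gene that lay at the threshold on replicate 1, and it was not called at the 99th percentile of background. It was higher on replicate 2 under every scaling tried, with 0.61 the lowest value. The next greatest difference was that of Tnfrsf1b (-0.87), and 8.42% of all genes above background differed more. Then came Tnfsf14 (-0.66), Traf2 (0.56), Fas (-0.55) and Tnfrsf21 (0.55), each exceeded in size by 15.4% to 23.3% of all genes. The values of Tnfrsf1b, Tnfsf14 and Fas were below 0 under each scaling, and those of Traf2 and Tnfrsf21 were -0.16 and -0.17 after scaling to the hybridisation controls. Ltb (-0.37), Tnf (-0.34), Traf6 (-0.22) and Ltbr (-0.19) were also below 0 under each scaling. Tnfrsf4 (0.49), Tnfsf4 (0.41), Tnfrsf1a (0.20), Tnfrsf18 (0.16), Tnfsf13b (0.11) and Traf7 (0.01) were above 0 as deposited and below it after scaling to the controls. Tnfsf13b and Traf7 were also below 0 after median scaling, Traf7 after quantile normalization, and Tnfsf13b with the mean over its probe sets.

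**Figure D3:**
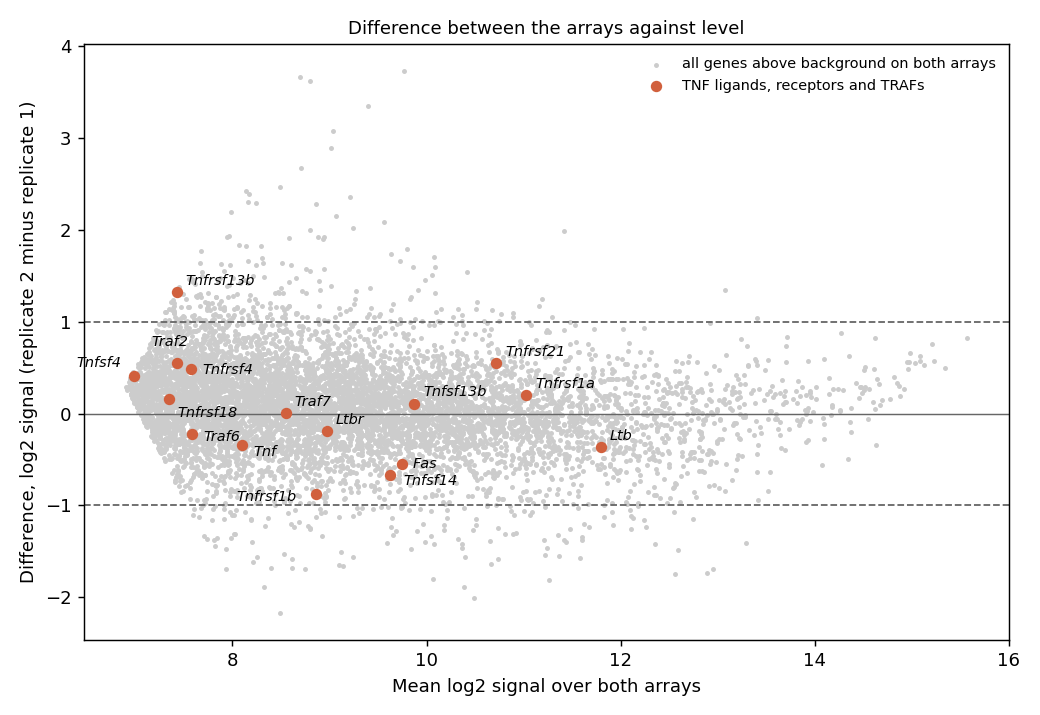
Log2 difference between the arrays (replicate 2 minus replicate 1) against mean log2 signal for the 7354 genes above background on both arrays (grey) and the 16 TNF ligand, receptor and TRAF genes among them (orange, named); dashed lines mark 2-fold. Of the 16, only Tnfrsf13b, at 1.32, lies outside the dashed lines.

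The genes around the receptors were examined with a list of 42 genes, of which 38 were measured and 24 were above background on both arrays (63.2%, all genes 40.4%). The list was chosen for known roles, with earlier results of these arrays known, and no test sets it apart from other genes. Both genes of TNF release were above background: Adam17, the protease that sheds TNF, at 559 and 518, and Rhbdf2, which encodes its partner iRhom2, at 514 and 343. All 7 measured adaptors and ubiquitin ligases of the receptor complex were above it, with Tradd at 223 and 228 and Fadd at 144 and 268. The others were Birc2 and Birc3 (the cIAP ligases) and Rnf31, Rbck1 and Sharpin (the linear ubiquitin chain complex). Of the kinases that lead to NF-kB and their partners 5 of 6 were above background, with Map3k7 (TAK1) at 302 and 297 and its binding partner Tab2 at 4061 and 3542, while Tab1 gave 102 and 26.0.

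Of 5 NF-kB subunits listed 4 were measured, and Nfkb1 was not among them. Rela was the only one of the 4 above background on both arrays, at 1818 and 1141. Nfkb2 gave 270 and 127 and Rel 110 and 103, each above it on replicate 1 alone, and Relb gave 14.7 and 15.0. The Nfkb2 value lay close under the replicate 2 threshold of 131. All 6 measured negative regulators were above background, among them Tnfaip3, the A20 ubiquitin editor, at 435 and 391, and Nfkbia, the NF-kB inhibitor, at 10933 and 12925. Both Tnfaip3 and Nfkbia are themselves induced by NF-kB. In the cell death branch, Casp8, the initiator caspase, gave 541 and 623 and its inhibitor gene Cflar 1335 and 1405. Ripk3 (16.8 and 147) and Mlkl (18.5 and 137), the kinase and effector of necroptosis, were above background on replicate 2 alone, at least 1.36-fold and 1.27-fold higher there by the replicate 1 threshold, bounds that are also under 1 after that scaling to the controls.

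Of 9 receptors and ligands of the same superfamily that carry other symbols, Relt was above background, at 928 and 591. The other 8, which include Cd40, Cd27 and Cd70, were on neither array above it, with no signal over 73.9 on replicate 1 or 119 on replicate 2. None of the 24 surrounding genes above background was over 2-fold apart between the arrays as deposited, but 6 were after scaling to the hybridisation controls (Birc3, Cyld, Map3k14, Rela, Relt and Rhbdf2, lower on replicate 2), where 20.8% of all genes were. Their differences ran from -0.71 (Birc3) to 0.98 (Rbck1), with a median of -0.07.

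**Figure D4:**
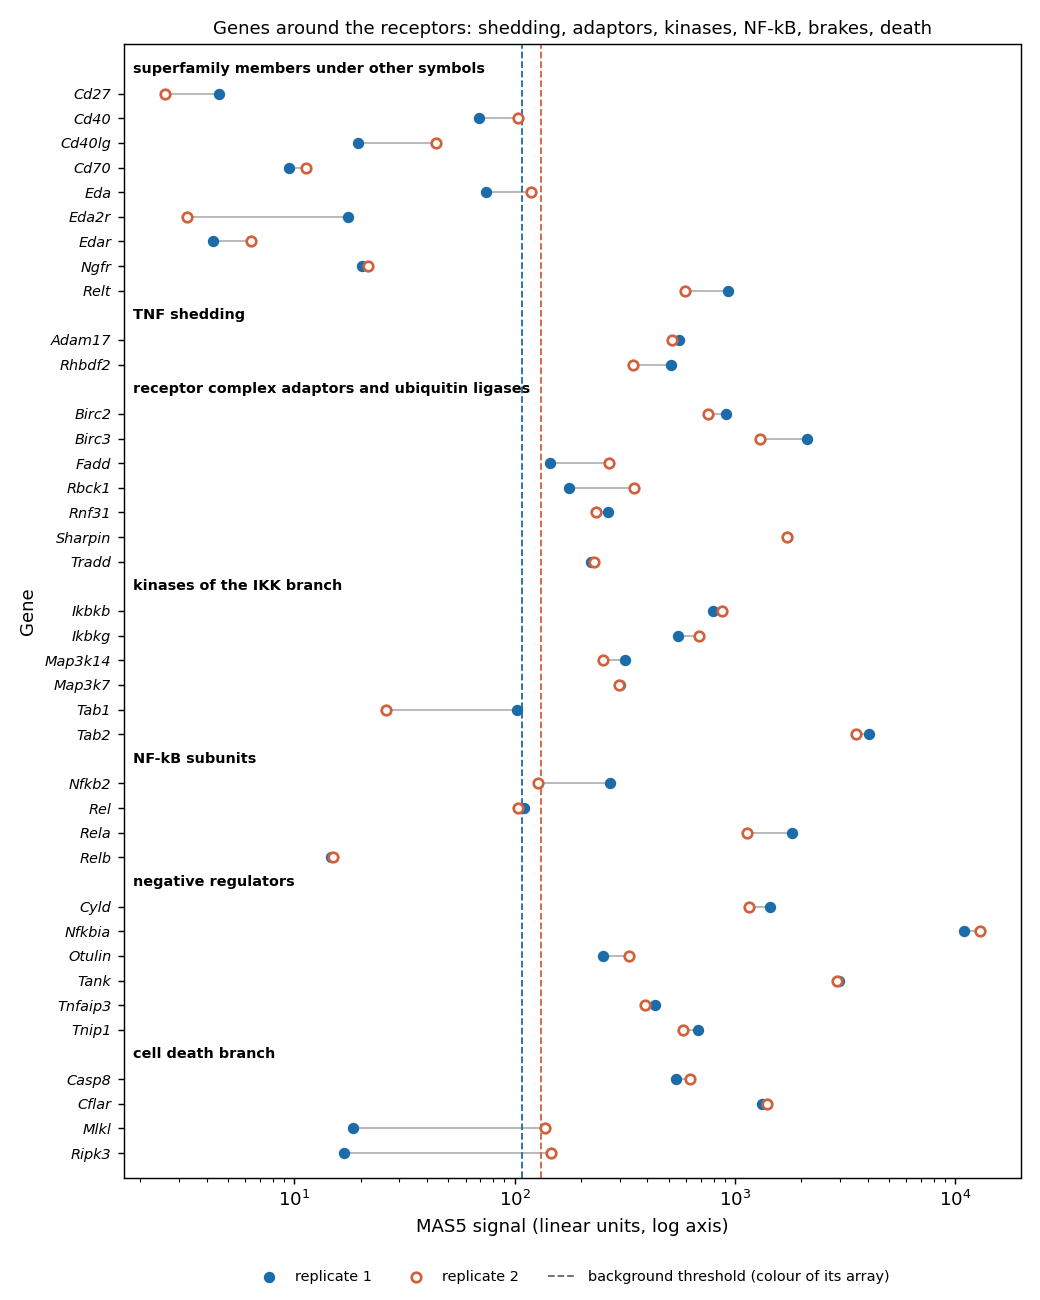
Signal of the 38 measured genes around the receptors (rows, by role) on replicate 1 (filled) and replicate 2 (open), on a log axis with each array's background threshold dashed (108 and 131); points are to be compared within a row. All adaptors and ubiquitin ligases and all negative regulators lie to the right of the thresholds on both arrays, and Ripk3 and Mlkl on replicate 2 alone.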

How the data were processed

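Total RNA of 2 samples of sorted neutrophils was labelled and hybridised to 1 expression array each, per the labels' protocols. The deposited values are linear signal intensities; the submitters' processing notes name MAS5, with its version not given in the sources used here. Each array's mean, trimmed by 2% at both ends, came to 250.0, so differences are relative to an equal total.

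Of 45101 probe sets, 34958 had 1 gene in GEO's platform annotation, 932 had several and 9211 were unnamed here. All 66 member probe sets matched the RefSeq gene table (GRCm38.p6) by gene identifier, and no symbol changed. Signals were floored at 1 before log2. With 2 arrays of 1 group no test between groups exists, the number of arrays limits the precision, and the spread may be technical.

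The members and lists were chosen with earlier results of these data known. The 4 printed promoters, the motifs and the ligand and receptor pairs were chosen after values were seen. Every member gene above background on an array is given its values; of the surrounding lists, the first 2 genes above background in each and any over 2-fold apart, and others named here were chosen after their values were seen. Calculations used Python 3.11.15, pandas 2.3.3 and numpy 2.4.6, and were tested on simulated data. Alternatives were other background percentiles, scalings, probe set choices, an added 32, no filter, and each array alone.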

Additional observations from a re-analysis of the deposited data

Results flagged for a closer look

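A probe set assigned to both Tnfrsf22 and Tnfrsf23 gave signals of 150.5 on replicate 1 and 220.3 on replicate 2, above background on both arrays. It stands outside the single-gene probe sets and could not be given to either gene. The 2 other probe sets shared by several genes that include a family member, those of Tnfsf12 with Tnfsf13 or a fusion transcript of both, were not above background on both arrays (75.2 and 35.8, and 90.7 and 131).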

How the results depend on the processing

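The count of 16 family genes above background ranged from 11 (99th percentile) to 18 (90th percentile) over the settings tried on both arrays. It was 14 with the mean over probe sets, where Tnfrsf1b and Traf6 were lost, and 13 without probe sets ending in _x_at, _s_at or _a_at. Replicate 2 alone gave 17 and replicate 1 alone 19. The surrounding genes gave 21 to 26 against 24. Tnfrsf13b was not above background at the 99th percentile, nor without those probe sets. In the latter setting its own probe set was kept, and the threshold was reset on the sensory receptor probe sets left. The count of family genes over 2-fold apart, 1 as reported, was 0 in both settings. It was 2 with median scaling (Tnfrsf1b added), 5 of 16 with scaling to the hybridisation controls (all genes 20.8%), namely Fas, Ltb, Tnf, Tnfrsf1b and Tnfsf14 and not Tnfrsf13b, and 13 of 39 with no filter on background (all genes 27.1%), which adds dim genes. The median difference was -0.66 with scaling to the hybridisation controls, beside -0.64 for all genes, and between -0.19 and 0.16 otherwise. Under that scaling all 16 single differences moved by 0.71, and under the other settings each moved by less than the SD of 0.50. Differences need both arrays, so they have no value without either one. Signals near background limit Tnfsf4, Tnfrsf13b, Tnfrsf18, Traf2 and Traf6.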
